A study of Mus musculus with 9 samples.

Results

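The genes described here are 10 members of the Notch pathway in mouse thymocytes, namely the receptors Notch1, Notch2 and Notch3 and the target or modulator genes Dtx1, Dtx4, Ptcra, Nrarp, Hes1, Lfng and Zmiz1. They were taken as every probe set of the array whose single gene symbol was one of these names, which gave 21 of 45037 probe sets and 10 of 18193 genes with a single symbol. The study set thymic tumours with active β-catenin, the effector of canonical Wnt signalling, against thymocytes of young mice that carried the same active β-catenin and against thymocytes without it. RNA of 9 C57Bl/6 mice was read on 1 array each.

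The tumour group held unsorted thymic tumours of 4 mice of genotype R26NC/NC CD4Cre+, aged 28, 26, 23 and 21 weeks (tumours 1 to 4), with CD4+CD8+ double-positive (DP) cells making up at least 95% of the cells. The pre-transformed group came from 3 R26NC/NC CD4Cre+ mice aged 6 weeks, with normal-sized thymi and polyclonal cells, and the controls from 2 R26NC/NC CD4Cre- mice of that age; both groups were sorted DP thymocytes. All mice thus carried the R26NC allele, and the Cre transgene, under Cd4 control and so active from about the DP stage, was present in tumour and pre-transformed mice and absent from controls. Sorted cells were over 98% DP. Tumour RNA (2.5 µg) was labelled by the standard protocol and RNA of sorted cells (0.1 µg) with an amplification kit. The labelling method, the sort and the age of the mice cannot be told apart from the tumour state. The Cre protein and active β-catenin cannot be told apart.

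Notch receptors are cut by proteases after they bind a ligand on a neighbouring cell, and the freed intracellular part enters the nucleus, joins the DNA-binding protein RBPJ and a Mastermind coactivator, and switches on target genes. In the thymus, Notch1 is needed for T cell commitment and for the CD4-CD8- double-negative (DN) stages, and its signal ordinarily wanes as cells pass the β-selection checkpoint into the DP stage. Activated Notch1 is also a well-known driver of T cell leukaemia in mice and humans.

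The window from 250 bases before to 50 bases after the transcription start was available for 8 of the 10 genes (RefSeq, build GRCm38.p6), all but Hes1 and Dtx4. It was searched on both strands for the core of the RBPJ motif, TGGGAA, and for the E-box, CANNTG, the motif bound by E proteins. Of 32851 promoters in the table, 25.6% held TGGGAA and 72.3% held an E-box. TGGGAA was found in the windows of Ptcra, Lfng and Zmiz1 and not in those of Notch1, Notch2, Notch3, Dtx1 and Nrarp. The 3 windows that held it are printed because Ptcra was called lower and Lfng higher in tumours, and Zmiz1 was the only member called before transformation. Each is written 5′ to 3′ on the gene's strand with the RBPJ core, or its reverse complement, in capitals.

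Ptcra: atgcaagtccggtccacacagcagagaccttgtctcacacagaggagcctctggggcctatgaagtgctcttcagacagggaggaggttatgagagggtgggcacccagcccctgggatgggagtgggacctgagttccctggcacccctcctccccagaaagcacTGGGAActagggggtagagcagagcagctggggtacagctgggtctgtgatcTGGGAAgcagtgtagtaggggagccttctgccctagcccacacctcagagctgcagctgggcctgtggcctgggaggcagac

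Lfng: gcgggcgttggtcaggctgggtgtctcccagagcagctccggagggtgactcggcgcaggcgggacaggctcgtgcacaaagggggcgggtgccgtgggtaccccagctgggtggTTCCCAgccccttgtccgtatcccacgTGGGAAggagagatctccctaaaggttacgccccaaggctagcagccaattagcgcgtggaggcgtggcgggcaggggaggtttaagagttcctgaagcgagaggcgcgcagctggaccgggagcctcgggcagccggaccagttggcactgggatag

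Zmiz1: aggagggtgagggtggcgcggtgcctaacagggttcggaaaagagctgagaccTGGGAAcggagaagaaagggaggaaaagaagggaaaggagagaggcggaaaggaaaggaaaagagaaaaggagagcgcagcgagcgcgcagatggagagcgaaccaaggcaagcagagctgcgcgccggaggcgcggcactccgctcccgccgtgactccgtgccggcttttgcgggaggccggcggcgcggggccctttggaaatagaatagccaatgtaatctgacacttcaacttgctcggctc

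The windows lie at chr17:46763663-46763962 on the minus strand for Ptcra, at chr5:140607091-140607390 on the plus strand for Lfng, and at chr14:25458935-25459234 on the plus strand for Zmiz1. In Ptcra the cores began at -84 and -32 from the start site, with E-boxes at -60, -49 and 22. In Lfng a core on the minus strand began at -135 and one on the plus strand at -108, where it shared 2 bases with an E-box beginning at -112; other E-boxes lay at -146, 2 and 33. In Zmiz1 the core began at -197 and an E-box at -109. A match describes the letters of the window and does not show that a factor binds there.

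Values are MAS5 signals, a background-corrected and scaled brightness for each probe set on a linear scale, and they compare 1 probe set between arrays. A probe set is called dim here where the group's geometric mean was under the mean 65th percentile of its arrays, which was 35.9 for tumours, 43.7 for pre-transformed cells and 40.8 for controls. Signals of 27 probe sets for bacterial RNA, which mark the background, reached at most 7.8 to 13.9 on tumour arrays, 2.4 to 5 on pre-transformed arrays and 3.2 to 4.5 on control arrays. Of 15 named genes of the DP stage, 14 were above the 65th percentile on every tumour array and 15 on every sorted array, but their summed signal was 17328.7 to 23838.2 in tumours, against 41783.3 to 44318.8 in pre-transformed cells and 39788.4 to 40994.3 in controls. The log2 ratio of 3′ to 5′ β-actin signal, a sign of RNA quality and labelling, was 0.54 to 1.14 in tumours, 0.20 to 0.35 in pre-transformed cells and 0.24 to 0.26 in controls. Its part in the results was not tested.

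Tumour 2 stood apart from the other tumours in most signals of other cell types. It was the lowest tumour for 11 of 12 myeloid and dendritic cell genes, 6 of 8 named B cell genes and 7 of 12 stroma and endothelium genes. Summed over the myeloid and dendritic cell genes the signals were 4262.7, 658.3, 4525 and 3890.6 in tumours 1 to 4, against 755.2 to 971 in pre-transformed cells and 894 to 930.3 in controls. Over the B cell genes they were 5718.6, 268.5, 5494 and 1940.4 in tumours, 1809.1 to 2097.7 in pre-transformed cells and 2830.5 to 3078.2 in controls. Ighm alone gave 5140.8, 238.7, 4997 and 1138.6 of these tumour sums and 1552.8 to 2778.9 of the sorted ones. Of the myeloid and dendritic sums, Cst3 gave 680, 484.9, 647 and 616.9 in tumours and 577.2 to 770.2 in sorted samples. The myeloid gene Lyz2 read 1659.3, 3.1, 1376.4 and 1741 in tumours 1 to 4, against 42.0 to 89.6 in sorted cells. The B cell gene Cd79a read 95.6, 0.5, 87.2 and 67.9 in tumours, against 2.7 to 5.8. Not all markers followed them. Cd79b of the B cell list was below all sorted samples in every tumour (80.7, 1.3, 73.6 and 108.5, against 195.8 to 253.9), as was Ighm in tumours 2 and 4 (238.7 and 1138.6, against 1552.8 to 2778.9). Itgam of the myeloid list was highest in tumour 2 (31.4, 113.2, 57.7 and 23.4, against 4.4 to 53.4). Stroma and endothelium genes summed to 1807.6, 492.2, 1835.2 and 1041.7 in tumours, against 180.2 to 238.3 in pre-transformed cells and 172.3 to 217.4 in controls. Igfbp7 alone gave 1336.9, 292.5, 1545 and 757.3 of these tumour sums, against at most 6.8 in sorted cells. Pecam1 gave 310.7, 135, 168.6 and 170.3, against 122.3 to 172.1, and every other gene of that list at most 42.4. Lyz2 and Cd79a were thus above all sorted samples in tumours 1, 3 and 4, while in tumour 2 they were below the highest bacterial signal of that array. In such bulk RNA, fewer cells of a type and less RNA per cell cannot be told apart. P-values measure the spread between mice, and the number of arrays limits their precision.

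Across the 10 genes, tumours had lower signal than pre-transformed cells for Notch1, Notch3, Dtx1, Ptcra and Nrarp and higher signal for Dtx4 and Lfng. Against controls, tumours were lower for Notch1, Notch3, Dtx1, Ptcra and Zmiz1 and higher for Dtx4 and Lfng. Before transformation, Zmiz1 was the only member called, and it was lower than in controls. A gene was called where limma gave a Benjamini-Hochberg adjusted p under 0.05 over 11644 genes. Between tumours and pre-transformed cells, 2 of the 10 members were called higher and 5 lower, beside 23.9% and 31% of all genes. Between tumours and controls, 2 were higher and 5 lower, beside 20.5% and 25.2%. Between pre-transformed cells and controls, 0 were higher and 1 lower, beside 1.11% and 0.524%. The comparisons share arrays, so that they are not independent of each other.

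**Figure D1:**
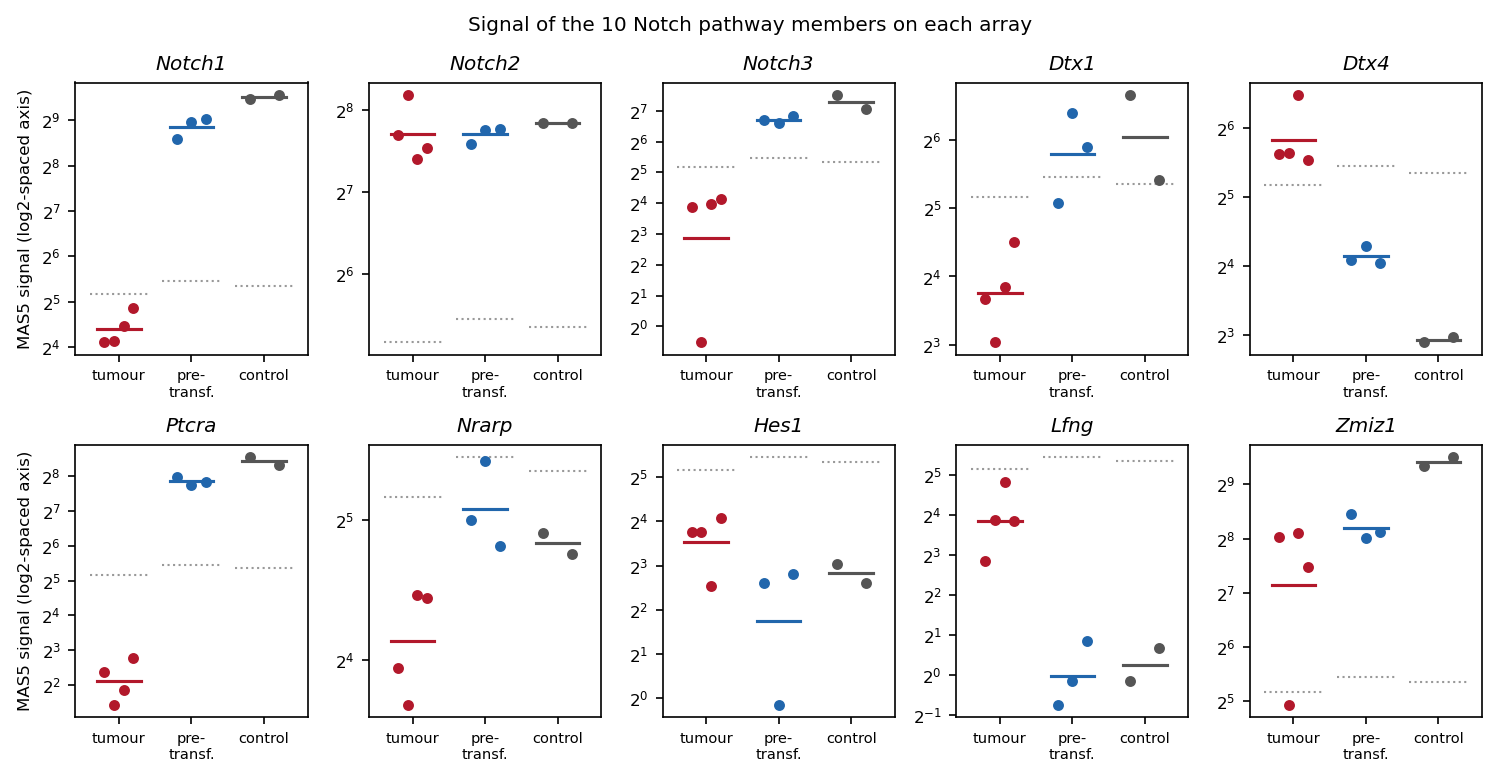
MAS5 signal (log2-spaced vertical axis, which differs between panels) of the probe set that represents each of the 10 members, with 1 point per array for tumours, pre-transformed cells and controls. Solid lines are group geometric means and dotted lines the mean 65th percentile of the group's arrays; Notch1 and Ptcra lie under the dotted line in all 4 tumours and far above it in all 5 sorted samples.

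Notch1, the receptor that drives T cell commitment, had signals of 17.2, 17.5, 22.2 and 29.0 in tumours 1 to 4, 383.3, 495.2 and 521.0 in pre-transformed cells, and 707.2 and 754.7 in controls. No group overlapped another, and every tumour was dim. Notch1 was at least 12.9-fold lower in tumours than in pre-transformed cells (-4.46 ± 0.22 on the log2 scale, standard error after the sign, adjusted p = 5.04e-06) and at least 20.4-fold lower than in controls (-5.12 ± 0.25, adjusted p = 8.81e-06). Pre-transformed cells differed from controls by -0.66 ± 0.14, whose adjusted p of 0.0667 missed the threshold. The second Notch1 probe set, dimmer, read 6.5 to 16.9 in tumours, 101.4 to 116.8 in pre-transformed cells and 138.3 to 161.0 in controls and was also called lower in tumours in both comparisons. In tumour 2 alone, the tumour with the least summed signal of other cells, the Notch1 difference from pre-transformed cells was -4.72. This value rests on 1 tumour array and has no measure of the spread between tumours.

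Notch2, a receptor used by several haematopoietic lineages, was not called in any comparison. It read 208.3, 291.3, 169.6 and 186.2 in tumours, 192.4, 216.4 and 218.0 in pre-transformed cells, and 229.0 and 228.9 in controls. Tumours spanned both other groups, and all arrays were above the level called dim. The log2 difference of tumours from pre-transformed cells was 0.00 (95% interval -0.43 to 0.44, adjusted p = 0.987), and that of pre-transformed cells from controls was -0.13 (-0.41 to 0.14, adjusted p = 0.607). A second Notch2 probe set was dim in every group, at 5.8 to 24.6 in tumours, 0.6 to 5.0 in pre-transformed cells and 0.5 to 1.0 in controls. It was called higher in tumours than in pre-transformed cells (2.81, adjusted p = 0.025) and controls (4.28, adjusted p = 0.00862), but its lowest tumour signals lay within the range of the bacterial background.

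Notch3, which DN thymocytes and T cell leukaemias are known to express, had signals of 14.7, 0.7, 15.6 and 17.6 in tumours, 103.1, 96.5 and 113.8 in pre-transformed cells, and 182.6 and 133.4 in controls. All tumours lay below all sorted samples on this probe set, and tumour 2, whose signal was under the highest bacterial signal of its array (7.8), lay far below the other tumours. Notch3 was at least 2.91-fold lower in tumours than in pre-transformed cells (-3.84 ± 0.97, adjusted p = 0.00751) and at least 4.35-fold lower than in controls (-4.42 ± 1.10, adjusted p = 0.00916). Without tumour 2 the difference from pre-transformed cells was -2.71 (adjusted p = 2.11e-05), and from controls -3.29 (adjusted p = 2.73e-05). Without control 1 the call against controls was lost (-4.19, adjusted p = 0.0752). The second Notch3 probe set read 4.8, 7.8, 4.5 and 0.4 in tumours, against 29.6 to 35.3 in pre-transformed cells and 35.6 to 53.9 in controls, and was also called lower in tumours. On it tumour 2 was the highest tumour and tumour 4 the lowest. All 4 were at or under the highest bacterial signal of their arrays (9.2, 7.8, 10.8 and 13.9). Their order on this probe set therefore cannot show whether the low signal of tumour 2 was shared. Pre-transformed cells differed from controls by -0.58 ± 0.17 (adjusted p = 0.136).

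Ptcra encodes pre-Tα, the chain that pairs with the newly made T cell receptor β chain at β-selection, and is a direct Notch target. Its signals were 5.2, 2.7, 3.6 and 6.8 in tumours, 250.6, 213.6 and 228.2 in pre-transformed cells, and 371.9 and 318.2 in controls. Every tumour signal was below the highest bacterial signal of its own array, and no group overlapped another. Ptcra was at least 6.42-fold lower in tumours than in pre-transformed cells (-5.74 ± 0.32, adjusted p = 5.34e-06) and at least 9.59-fold lower than in controls (-6.32 ± 0.36, adjusted p = 1.42e-05). Pre-transformed cells differed from controls by -0.58 ± 0.13, with an adjusted p of 0.0672. The calls of Notch1 and Ptcra in both tumour comparisons held under all 25 alternatives run.

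Dtx1, an E3 ubiquitin ligase of the Deltex family and a Notch target in thymocytes, read 12.7, 8.2, 14.4 and 22.7 in tumours, 33.8, 84.0 and 59.6 in pre-transformed cells, and 101.0 and 42.6 in controls. All tumours were below all sorted samples, while pre-transformed and control signals overlapped. The log2 difference of tumours was -2.03 ± 0.46 from pre-transformed cells (adjusted p = 0.00422) and -2.27 ± 0.52 from controls (adjusted p = 0.00611), or at least 1.54-fold and 1.83-fold. Without control 1 the call against controls was lost (-1.65, adjusted p = 0.0994), and with all signals raised to a common floor of 40 both calls were. Its second probe set was called lower in tumours as well, at 0.9 to 11.6, against 20.9 to 27.5 in pre-transformed cells and 49.5 to 63.4 in controls.

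Dtx4, another Deltex ligase, was higher in tumours. It read 49.3, 49.8, 89.3 and 46.4 in tumours, 16.9, 19.6 and 16.4 in pre-transformed cells, and 7.4 and 7.8 in controls. The 3 groups were separate, in the order tumour, pre-transformed, control. Dtx4 was at least 1.29-fold higher in tumours than in pre-transformed cells (1.68 ± 0.31, adjusted p = 0.00138) and at least 1.39-fold higher than in controls (2.89 ± 0.35, adjusted p = 0.000262); both sorted groups were dim. With the common floor of 40 these were 0.50 (adjusted p = 0.12) and 0.50 (adjusted p = 0.185). Pre-transformed cells differed from controls by 1.21 ± 0.33 (adjusted p = 0.112), not called. The second Dtx4 probe set followed the same order, at 8.8 to 31.1 in tumours, 4.9 to 6.1 in pre-transformed cells and 0.9 to 1.4 in controls, and was called higher in tumours in both comparisons.

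Nrarp encodes a feedback inhibitor of the Notch transcription complex. It read 15.4, 12.8, 22.1 and 21.8 in tumours, 32.0, 42.9 and 28.1 in pre-transformed cells, and 30.0 and 27.1 in controls. All tumours lay below all sorted samples, but the probe set was dim in every group, so no fold is given. The log2 difference of tumours from pre-transformed cells was -0.94 ± 0.32 (adjusted p = 0.028), and from controls -0.70 ± 0.36 (adjusted p = 0.135). The first call was lost without pre-transformed 1 (-0.98, adjusted p = 0.0662), pre-transformed 2 (-0.77, adjusted p = 0.118) or tumour 1 (-0.88, adjusted p = 0.0508), and under 5 other alternatives. A second Nrarp probe set was not called (-1.78, adjusted p = 0.087).

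Hes1, a repressor and the best known Notch target of many tissues, read 13.5, 13.5, 5.8 and 16.8 in tumours, 6.1, 0.9 and 7.0 in pre-transformed cells, and 8.2 and 6.1 in controls. The groups overlapped and all were dim. Tumours differed from pre-transformed cells by 1.77 ± 0.77 (adjusted p = 0.0752), which passed without tumour 3 (2.11, adjusted p = 0.0496), and from controls by 0.71 ± 0.88 (adjusted p = 0.529).

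Lfng, the Fringe glycosyltransferase that alters how Notch receptors answer their ligands and is known to keep thymocytes responsive to Delta ligands, read 7.2, 14.7, 28.6 and 14.6 in tumours, 0.6, 0.9 and 1.8 in pre-transformed cells, and 0.9 and 1.6 in controls. Every tumour was above every sorted sample, yet all groups were dim, so no fold is given. The log2 difference of tumours was 3.87 ± 0.78 from pre-transformed cells (adjusted p = 0.00213) and 3.59 ± 0.88 from controls (adjusted p = 0.00837). Lfng was tested only because tumours 2, 3 and 4 reached the median of their arrays, which no sorted sample did. It thus entered through the group where it was high. The lowest tumour signal lay under the highest bacterial signal on its own array, 9.2, and the higher background of tumour arrays moved with this result; its part was not tested. With every signal raised to a common floor of 40, Lfng had a difference of 0 and no call. Without control 1 the call against controls was lost as well (3.18, adjusted p = 0.0765). The second Lfng probe set, at most 2.6 on any array, was left out as too dim.

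Zmiz1 encodes a protein of the PIAS family that is known to bind Notch1 as a cofactor in leukaemia and in early thymocytes. It read 262.5, 30.6, 273.4 and 178.8 in tumours, 350.2, 256.8 and 278.7 in pre-transformed cells, and 648.0 and 721.4 in controls. Both control signals were above every other array, and tumours overlapped pre-transformed cells. Zmiz1 was 2.34-fold lower in pre-transformed cells than in controls (-1.22 ± 0.15, adjusted p = 0.0106). That call was lost without control 1 (-1.30, adjusted p = 0.0776), control 2 (-1.15, adjusted p = 0.148) or pre-transformed 3 (-1.19, adjusted p = 0.0627), while its size ranged from -1.36 to -1.13 over all alternatives. It was also lost without the trend (adjusted p = 0.123), with tumour arrays in the fit (adjusted p = 1) and with the common floor (adjusted p = 0.15). Its other kept probe sets differed by -0.98 (adjusted p = 0.129) and -1.60 (adjusted p = 0.101) and were not called.

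The size of the Zmiz1 differences in tumours depended on tumour 2, but the call against controls did not. Against controls Zmiz1 was 4.86-fold lower (-2.28 ± 0.73, adjusted p = 0.0277). Without tumour 2 it was -1.55 (adjusted p = 0.000617), and the call was lost without control 1 (-2.36, adjusted p = 0.116) or control 2 (-2.20, adjusted p = 0.129), and narrowly without the trend, with 2 groups in the fit or with the common floor (adjusted p = 0.0515 to 0.0643). Against pre-transformed cells, the difference of -1.06 ± 0.64 was not called (adjusted p = 0.187). Without tumour 2 that difference was -0.32 (adjusted p = 0.2), and with tumour 2 as the only tumour -3.26. The latter rests on 1 tumour array and has no measure of the spread between tumours. A dimmer Zmiz1 probe set, called lower in tumours than in pre-transformed cells (-2.06, adjusted p = 0.0303), read 31.0, 3.3, 19.2 and 25.4 in tumours, against 43.8 to 77.7 in pre-transformed cells and 109.7 to 137.9 in controls. Tumour 2 was again the lowest. The remaining kept Zmiz1 probe set read 16.5, 0.8, 24.4 and 11.1 in tumours, 9.9 to 23.3 in pre-transformed cells and 47.6 to 53.3 in controls. It was called neither against pre-transformed cells (-1.10, adjusted p = 0.388), which tumours overlapped, nor against controls (-2.70, adjusted p = 0.0872), and tumour 2 was the lowest on it too. The tumour lowest on all 3 Zmiz1 probe sets thus also had the lowest summed signals of B cell (mostly Ighm), myeloid and stroma (mostly Igfbp7) genes. The part of those cells in the Zmiz1 signals of tumours 1, 3 and 4 was not tested.

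**Figure D2:**
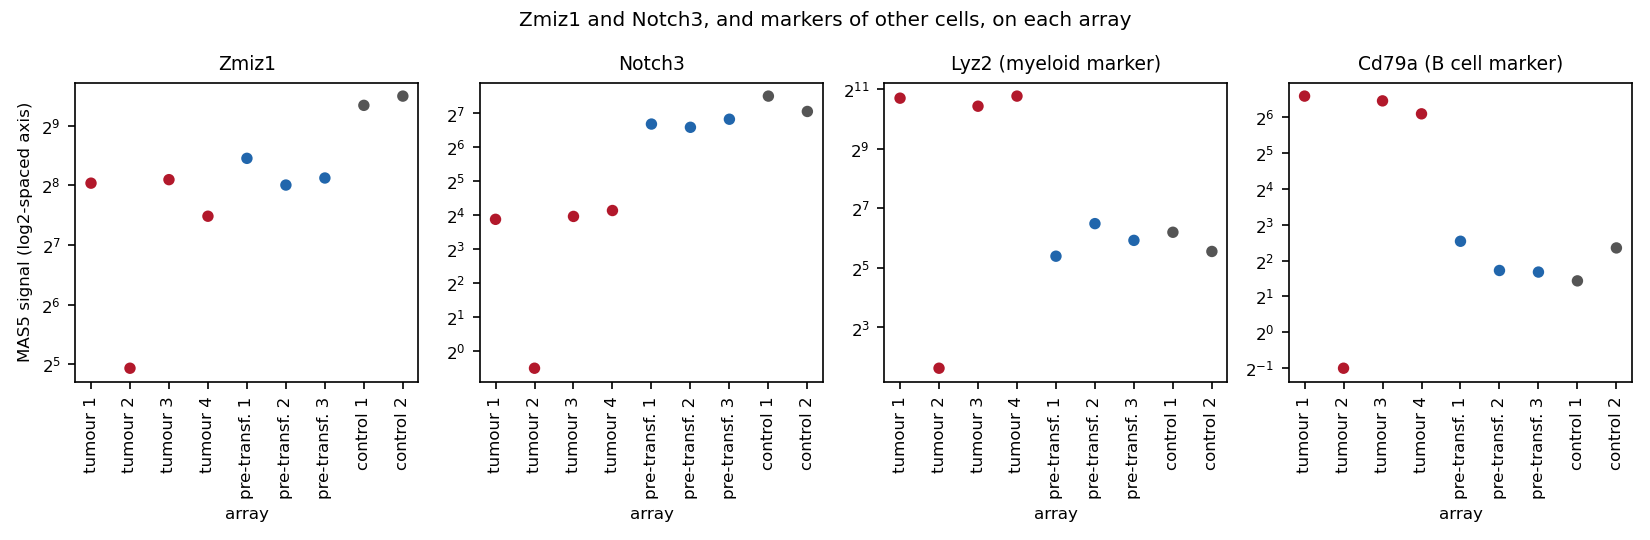
MAS5 signal on each array (log2-spaced vertical axis, which differs between panels; tumours, then pre-transformed cells, then controls) of Zmiz1 and Notch3 and of the myeloid marker Lyz2 and the B cell marker Cd79a. Each gene is shown by 1 probe set. Tumour 2 is the lowest tumour in all 4 panels, with 30.6 for Zmiz1 and 3.1 for Lyz2. It is the highest tumour on the second Notch3 probe set, which is not drawn. There every tumour is at or under the highest bacterial signal of its array.

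**Figure D3:**
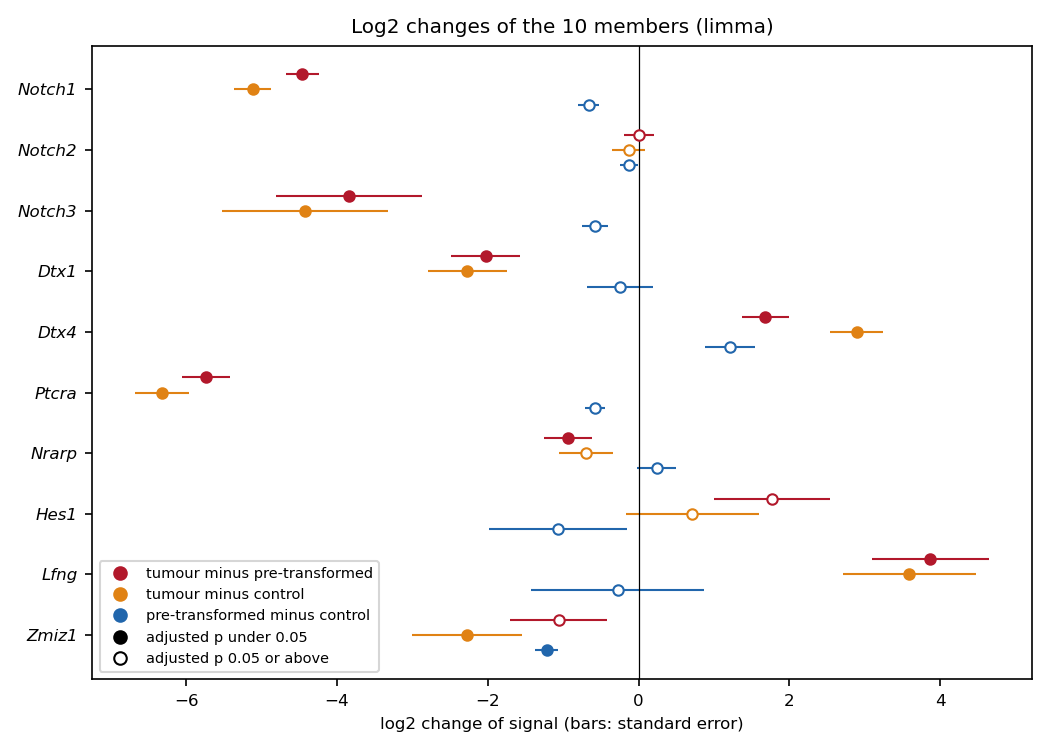
Log2 change of each member in tumours against pre-transformed cells, tumours against controls and pre-transformed cells against controls, with bars of 1 standard error from limma; filled points had an adjusted p under 0.05. Notch1, Notch3, Dtx1 and Ptcra are filled and below 0 in both tumour comparisons, with fitted values that depend on the background since all 4 are dim in tumours, and Zmiz1 is the only filled point of the comparison before transformation.

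Of the 21 probe sets, 18 passed the filter on dim signals, which asked for a signal at or above the array's median on at least 2 arrays and could favour genes high in 1 group. Lfng, Hes1 and the dimmer probe sets of Dtx4 and Notch2 reached that median on tumour arrays only. Ptcra and the dimmer probe sets of Notch3 and Dtx1 reached it on sorted arrays only. Apart from Hes1 all of these were called in tumours, so their calls came from probe sets tested through the group where they were high. Left out were 1 of Lfng and 2 of Zmiz1, with at most 10 on any array. Tested over 26421 probe sets, 4 of the members' were higher and 9 lower in tumours than in pre-transformed cells, beside 23.1% and 26.7% of all probe sets. Against controls, 4 were higher and 9 lower, beside 19.4% and 20.5%. In pre-transformed cells against controls 0 were higher and 1 lower, beside 0.587% and 0.246%.

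**Figure D4:**
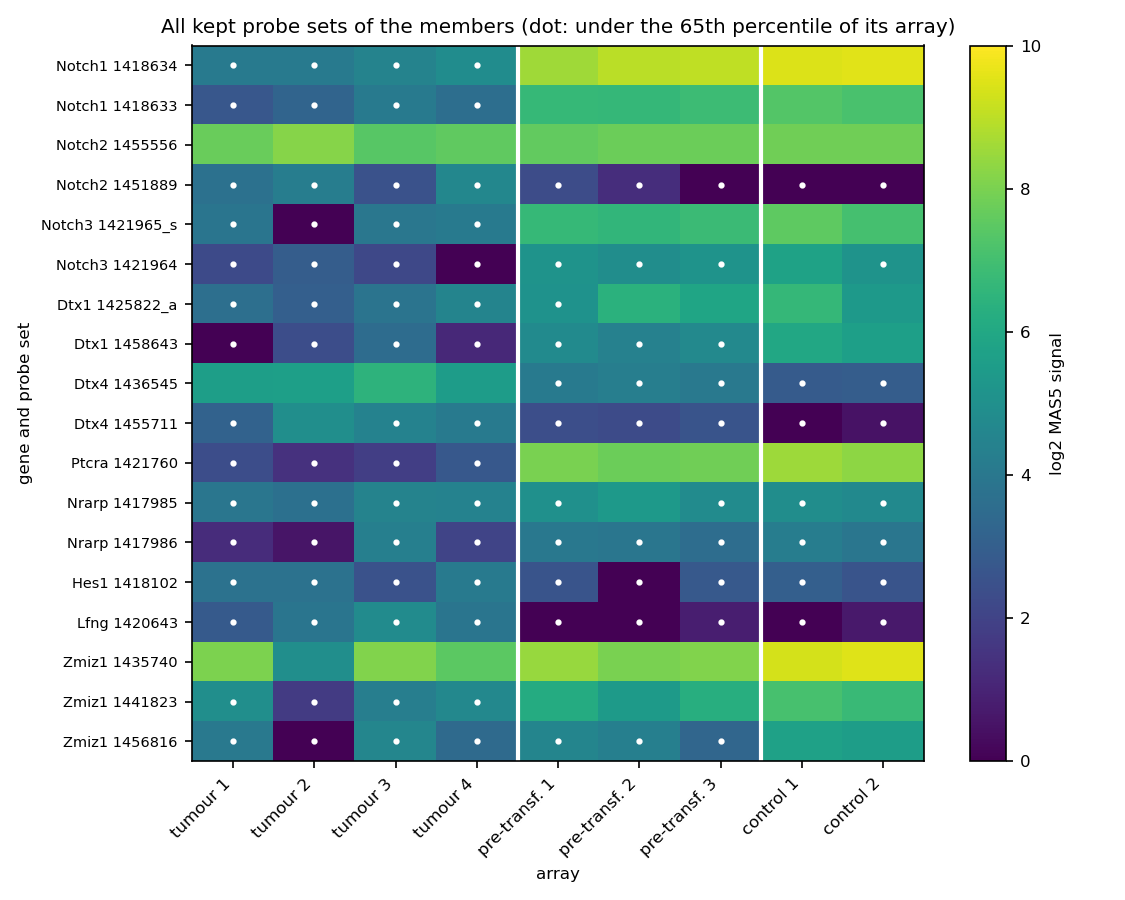
Log2 MAS5 signal (colour) of the 18 kept probe sets of the members on the 9 arrays, with a dot where a signal was under the 65th percentile of its array. Both Notch1 and both Notch3 probe sets are dotted in every tumour, and the brighter Notch2 probe set has no dot.

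The median log2 difference of the 10 members was -1 between tumours and pre-transformed cells, where that of all genes was -0.12. Between tumours and controls it was -1.49, where all genes had -0.08, and between pre-transformed cells and controls -0.43, where all genes had 0.02. These medians depended on dim signals and on tumour 2. With the common floor of 40 they were -0.29, -0.42 and -0.15 in the same order, where all genes had 0. Without tumour 2 the members had -0.56 against pre-transformed cells and -1.05 against controls, where all genes had -0.11 and -0.06. The counts of all genes called depended on scaling. Tumours had 2785 genes higher and 3607 lower than pre-transformed cells, but 1877 and 4279 after centring each array on the median of all probe sets and 3624 and 2699 after centring on the genes tested. Against controls, 2387 were higher and 2936 lower in tumours, with 1253 and 4132 and with 3246 and 2151 under the same 2 centrings. Before transformation, 129 were higher and 61 lower, with 77 and 113 and with 120 and 63. With them the median of all genes was -0.38 and 0.17 in tumours against pre-transformed cells, -0.46 and 0.21 in tumours against controls, and -0.11 and 0.02 before transformation. The differences of the members, and of the other genes given below, are therefore relative to a scale that shifts by that much.

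The other genes of the pathway were listed by role, 70 in all, of which 57 were tested. In tumours against pre-transformed cells 11 were higher and 27 lower (19.3% and 47.4%, beside 23.9% and 31% of all genes), with a median log2 difference of -0.62. Against controls 8 were higher and 24 lower (14% and 42.1%, beside 20.5% and 25.2%), with a median of -0.50. Before transformation 1 was higher and 0 lower (1.75% and 0%, beside 1.11% and 0.524%), with a median of 0.04. The split in tumours against pre-transformed cells depended on scaling. After centring each array on the median of all probe sets, 6 were higher and 32 lower, where 1877 and 4279 of all genes were. With quantile normalization it was 12 and 26, where all genes had 2787 and 3283. The groups by role hold 3 to 18 tested genes each, and their counts in tumours against pre-transformed cells stand beside the same 23.9% and 31%; 37.5% of the proteolysis genes were lower, for example.

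The DNA-binding factor Rbpj read 217.2, 256.0, 203.9 and 207.3 in tumours, 295.7, 281.7 and 296.9 in pre-transformed cells, and 296.8 and 324.5 in controls. It was lower in tumours than in pre-transformed cells (-0.40 ± 0.14, adjusted p = 0.0349), with no overlap. The coactivator Maml1 was lower by more (-1.43 ± 0.32, adjusted p = 0.00376), at 96.2, 128.0, 250.8 and 245.5 in tumours, 464.7, 467.8 and 408.0 in pre-transformed cells, and 469.6 and 430.4 in controls. Of 11 tested genes of the nuclear complex, 3 were higher (Snw1, Kat2a and Hdac1) and 6 lower, with Kat2b (-1.97) and Crebbp (-1.22), both acetyltransferases, among them. Small differences, here and below, such as that of Rbpj, stand beside a scale that moves. The median of all genes was -0.12 in this comparison, and -0.38 and 0.17 under the 2 centrings.

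Among 5 genes of receptor glycosylation, Pofut1, which adds O-fucose to the receptor, was lower in tumours than in pre-transformed cells (-1.36 ± 0.19), as was Rfng (-1.62 ± 0.27), a Fringe enzyme like Lfng. Chsy1 was also lower (-0.45), and Poglut1, which adds O-glucose, was higher (0.66). Of 8 genes of proteolysis 3 were lower and 0 higher. They were Aph1a (-1.30), a subunit of the γ-secretase that frees the intracellular part, Furin (-1.91), which cuts the receptor during its maturation, and Adam17 (-0.47), a protease of the cell surface.

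Among 12 genes of trafficking and turnover 2 were higher and 6 lower. The Deltex relative Dtx3 was lower (-2.59 ± 0.32, adjusted p = 0.000123), as were the ubiquitin ligases Mib2 (-1.75) and Itch (-1.29), while the ligase Nedd4 was higher (2.22 ± 0.28, adjusted p = 0.000134) and so was Cdk8 (0.69), a kinase that marks the intracellular part for decay. Fbxw7, the ubiquitin ligase subunit that recognises that part, was the only gene of the wider pathway called before transformation. It read 119.1, 194.9, 321.3 and 253.4 in tumours, 537.0, 594.8 and 624.5 in pre-transformed cells, and 359.6 and 359.4 in controls. Fbxw7 was thus highest in pre-transformed cells, 0.70 ± 0.11 above controls (adjusted p = 0.0267), and lowest in tumours, -1.49 ± 0.29 from pre-transformed cells (adjusted p = 0.00168). Its call before transformation was lost without control 1, control 2 or pre-transformed 3. In tumours its difference from controls was -0.79 ± 0.32 and was not called (adjusted p = 0.0706).

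Of 18 other tested target genes of T cells and progenitors, 5 were higher and 9 lower in tumours than in pre-transformed cells. Myc, a growth regulator that Notch1 directly activates in T cell leukaemia and that other pathways also drive, read 1205.7, 1486.1, 1722.5 and 1192.2 in tumours, 116.2, 53.3 and 67.8 in pre-transformed cells, and 88.0 and 59.4 in controls. Its log2 difference was 4.21 ± 0.27 from pre-transformed cells (adjusted p = 7.56e-06), opposite in direction to Notch1. Il7r was also higher (3.91 ± 0.90), with 612.1 in tumour 1 and 31.5 to 140.4 in the other tumours, against at most 11.0 in sorted cells. Il2ra, the DN-stage marker CD25, was lower at 4.0 to 7.4 in tumours, against 19.1 to 37.3 in pre-transformed cells and 18.3 to 29.2 in controls (-2.12 ± 0.42), and dim in all groups. Lower too were Gata3 (-1.59 ± 0.33), a regulator of T cell fate, Cd3e (-1.96 ± 0.15), a chain of the T cell receptor complex, Runx1 (-2.14 ± 0.34) and Hes6 (-1.24 ± 0.14). Runx3 was higher (2.61 ± 0.44).

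Of 3 tested ligands, 0 were called in any comparison by limma, and 0 had an unadjusted p under 0.05. These ligands, Dll1, Dll3 and Jag2, were dim in every group, with geometric means of 3.02 to 28.18. The lack of a call therefore does not show that they were unchanged. Dll4, the ligand that thymic epithelium presents to thymocytes, did not pass the filter, at 7.2 to 14.3 in tumours, 9.0 to 11.8 in pre-transformed cells and 0.8 to 3.8 in controls.

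**Figure D5:**
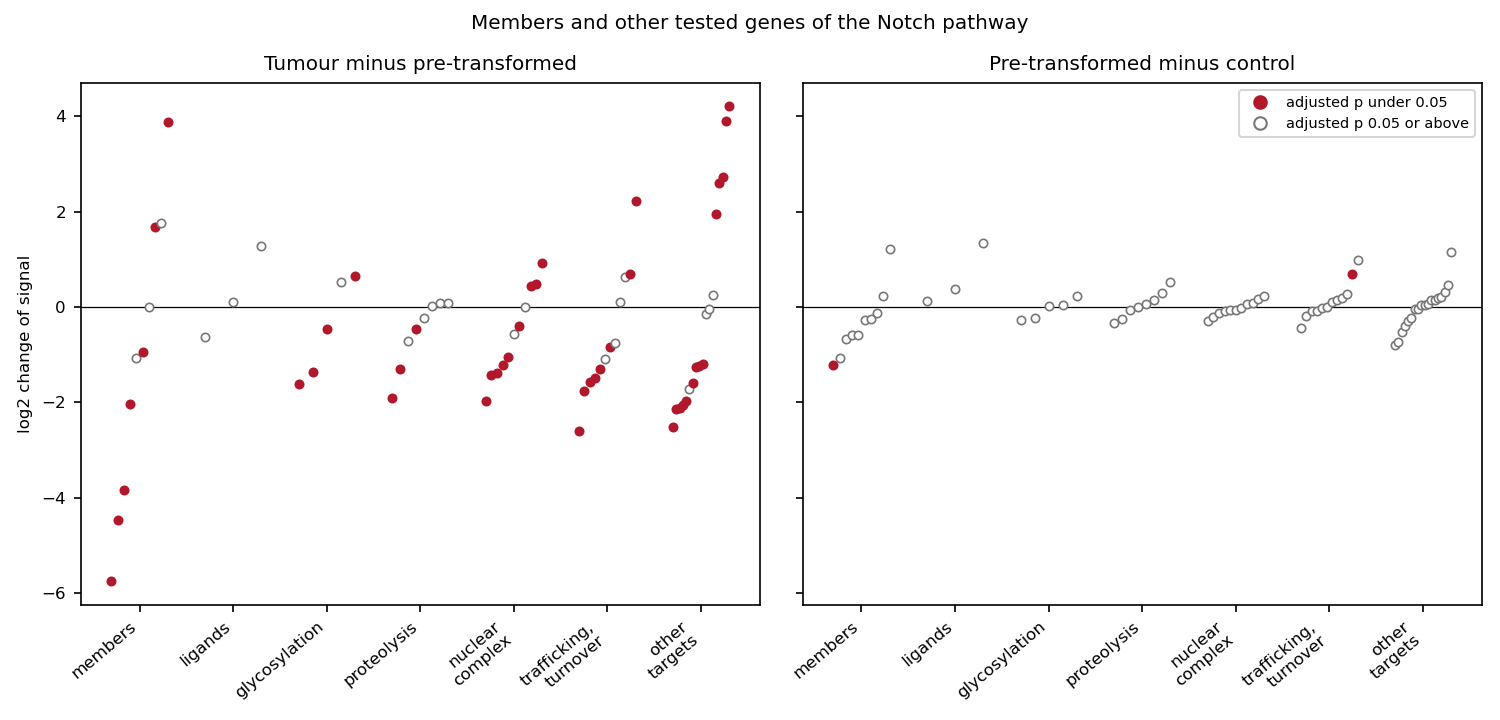
Log2 change in tumours against pre-transformed cells (left) and in pre-transformed cells against controls (right) for the members and the other tested genes of the Notch pathway, grouped by role and ordered by change within a group; filled points had an adjusted p under 0.05. Fitted values of dim genes, such as Ptcra at -5.74 and Lfng at 3.87, depend on the background (-2.53 and 0 with a common floor of 40). Before transformation the filled points are Zmiz1 and Fbxw7.

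E proteins are known to act with Notch at the Ptcra gene, and Id proteins inhibit them. Of 6 tested E protein and Id genes 4 were called lower in tumours than in pre-transformed cells and 0 higher. Of all genes 31% were lower and 23.9% higher. Tcf3, which encodes E2A, differed by -1.02 ± 0.23 (adjusted p = 0.00465), Tcf4 by -1.30 ± 0.33 and Tcf12, which encodes HEB, by -0.31 ± 0.11 (adjusted p = 0.0367), and Id1 by -1.32 ± 0.48 (adjusted p = 0.04). Of 15 tested DP stage genes 13 were lower in tumours than in pre-transformed cells and 0 higher, beside the same 31% and 23.9%. Of 9 tested DN genes 5 were higher and 1, Il2ra, lower, beside 23.9% and 31%. Of those 5, Flt3, Hhex and Lmo2 were dim in both groups, with geometric means of 15.61, 13.46 and 33.04 in tumours, whose arrays had the higher background. The part of these differences in the members' changes was not tested.

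The genes whose patterns over the 9 arrays were most like those of 4 members were found by the root mean square difference of log2 signals, each gene centred on its own mean. For Notch1 they were Aqp11 (0.375), a DP stage gene in the list used here, Maff (0.404) and 5830408C22Rik (0.424), where the median over all genes was 2.363. For Notch3 they were Slc14a1 (0.419), Hmgn3 (0.429) and Ltb (0.433), for Ptcra Malat1 (0.536), F13a1 (0.649) and Emilin1 (0.651), and for Dtx1 Vamp2 (0.291), Xaf1 (0.410) and Samd9l (0.413). Aqp11 had geometric mean signals of 54.74 in tumours, 1141.6 in pre-transformed cells and 1602.74 in controls. The member nearest to Notch1 was Ptcra (0.697). With 9 arrays in 3 groups, such likeness mostly describes the difference between groups.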

How the data were processed

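The 9 arrays (Affymetrix mouse 430 2.0) held 1 mouse each. The table the authors deposited holds linear signal intensity made with MAS5, per the submitters' processing notes (version not given in the sources used here). By the values, every array had a mean of 100 without its lowest and highest 2% of probe sets. Signals were rounded to 0.1, and median signals were 9.9 to 15.2.

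Signals were taken to log2 (0 set to 0.1) and not normalized again. After dropping 64 control probe sets, those reaching the array's median on 2 or more arrays were kept (26421), and the kept one of highest mean stood for its gene (11644 genes). Of 45037 probe sets, 34945 named 1 gene, 932 several and 9160 none in the tables used here. Group signals are geometric means. Tests used limma 3.58.1 in R 4.3.3 (lmFit, eBayes with trend) with Benjamini-Hochberg adjustment; pre-transformed against control was fitted on its own 5 arrays and both tumour comparisons on all 9. The code was tested on simulated data with known changes. Where the dimmer group was dim, it was set to the mean 65th percentile of its arrays and the fold given as at least.

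All members are named with every array value, and other pathway genes by role as those called, up to 3 per list and direction with the smallest p, plus Rbpj, Maml1, Myc, Il2ra, Gata3, Fbxw7 and Dll4; Tcf7 was not analysed here. Genes named for likeness are the 3 nearest. The members and lists were chosen with earlier results of these data known. Replicate numbers name different mice: correlations of same-numbered arrays were -0.02 to 0.08, so no pairing was used. Alternatives were quantile normalization, median centring, no filter or a stricter one, an offset of 10, the mean of probe sets, no _x_at or _s_at probe sets, no trend, robust variance, array weights, a minimum log2 change of 1, other arrays in the fit, each array left out and a replicate block. Centring on the genes tested, a common floor of 40 and tumour 2 as the only tumour were chosen after seeing the data. Figures used matplotlib 3.10.9 in Python 3.11.15.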

Additional observations from a re-analysis of the deposited data

Results flagged for a closer look

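Among the 18 kept probe sets of the members, 2 had a tumour that stood far from the other tumours on the log2 scale: the gap to the nearest tumour, as a share of the range of all 4, passed Dixon's 95% critical value. Chance flags about 1 in 20 groups. For Notch3 the gap of tumour 2, with a signal of 0.7 against 14.7 to 17.6 in the other tumours, was 0.944 of the range. For Dtx4 the gap of tumour 3, with 89.3 against 46.4 to 49.8, was 0.892.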

How the results depend on the processing

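Notch1 and Ptcra in tumours kept direction and call under every alternative. Of 691 values of members under alternatives, 637 kept direction and side of the threshold, 29 lost a call, 11 gained one and 14 turned direction; the causes were not tested. Turned values were those of Notch2, of Nrarp with the mean of probe sets (-0.01), and of Dtx1 and Lfng before transformation (-0.87 to 0.38 for Dtx1 and -0.71 to 0.14 for Lfng with each array left out). Notch2, whose probe sets disagree, turned with the mean of probe sets to 0.67 before transformation and to 2.07 in tumours against controls (adjusted p = 0.00597). Against controls it also turned with quantile normalization (0.02), centring on the genes tested (0.15) and tumour 2 as the only tumour (0.35). Against pre-transformed cells the main difference of Notch2 was 0.00. Its sign turned with median centring (-0.25), with array weights (-0.04) and without tumour 2 or pre-transformed 1. With each array left out the difference was -0.15 to 0.11.

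Before transformation the 190 genes called became 74 with no filter, 1 without trend, 431 with array weights, 82 with a minimum log2 change of 1, 6 with other arrays in the fit, 14 with a common floor of 40 and 18 to 291 with each array left out. The 1 member called became 2 with median centring or the replicate block, 3 with array weights, 0 without trend, with other arrays in the fit or with the common floor, and 0 to 1 with each array left out. Array weights added Notch1 and Ptcra, the replicate block Notch1 and median centring Ptcra. The 1 other pathway gene, Fbxw7, was not called (0 genes) with median centring, without _x_at and _s_at probe sets, without trend, with a minimum log2 change of 1, with other arrays in the fit, with the replicate block or with the common floor, and 0 to 1 were called with each array left out. With the replicate block 80 genes were higher and 68 lower before transformation, where 129 and 61 were without it. The block moved no total of all genes called past 1.5 times. The numbers share no animal, so this block does not pair samples.

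In tumours the 7 members called in each comparison became 3 with the common floor in each, which lost Dtx1, Dtx4 and Lfng in both, Nrarp against pre-transformed cells and Zmiz1 against controls. With each array left out they were 6 to 8 against pre-transformed cells and 3 to 7 against controls, genes called 5124 to 6551 and 2589 to 5703, and other pathway genes 30 to 40 and 16 to 35, with the lowest values against controls all without control 1. The 13 member probe sets called in each tumour comparison compare with 7 where 1 probe set stood for a gene. With 2 controls, and with most called members dim in at least 1 group, signal over background limits what folds can show.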
